A study of Rattus norvegicus with 24 samples.

Results

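The copper by sucrose interaction asks whether lowering dietary copper changed a liver transcript by a different amount when the diet held 30% sucrose than when it held 10%. It was computed as the low minus adequate copper difference at 30% sucrose, minus the same difference at 10% sucrose, over all 24 arrays of the series, 6 per diet. All 18643 genes that were measured well enough, of 26278 gene names on the array, were tested. The description turns on the 12026 of them that were brightly expressed, meaning that their mean signal lay above the median signal of the array. That mean was taken over all 24 arrays. A gene can therefore count as bright only through the diets where it is high, and all counts of bright genes carry that limit.

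The animals were male Wistar rats, an outbred stock, with no allele named in the labels, raised on pellets to 6 months of age and then fed a purified diet (AIN76A formulation) for 12 weeks, to a labelled age of 9 months. The diets were low in copper (below 0.3 mg/kg) at 30% sucrose, here named low-Cu/30; adequate in copper (125 mg/kg) at 30% sucrose, or adequate-Cu/30; low in copper at 10% sucrose, or low-Cu/10; and adequate in copper at 10% sucrose, the control diet. Starch and dextrin made up the remaining carbohydrate. Adequate copper at 125 mg/kg is the level that the sample names call high copper, so the contrast is between a deficient diet and this one level. RNA from flash-frozen liver, 1 rat per array, was labelled with Cy3 and hybridised to one-colour Agilent arrays.

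Copper is the catalytic metal of cytochrome c oxidase, of superoxide dismutase 1 and of ceruloplasmin, which the liver secretes. Sucrose delivers fructose, which the liver takes up and turns into glycogen and fat. In a crossed design an interaction close to 0 means that the effects of both changes add up on the log scale, and a crossing pattern means that the copper difference has opposite signs at the 2 sucrose levels.

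A level here is the log2 of a gene's signal after division by its array's 75th percentile, and differences and interactions are on the same log2 scale. The number of arrays limits the precision, and p-values measure the spread between rats. The 75th percentile itself lay between 433 and 1284, with local background at 38 to 48, and the share of probes well above background was 59.9 to 73.4%. Hepatocyte markers were present throughout: all 25 were well above background on all 24 arrays, with albumin (Alb) at mean levels of 8.57 to 8.73 on the 4 diets. The summed signal of those 25 markers had medians of 11.88, 11.81, 11.93 and 11.88 (log2) in the order of diets given above. By barcode, the arrays came from 3 slides of 8. The low-Cu/30 arrays were all on slide 1, together with 2 of adequate-Cu/30, whose other 4 shared slide 2 with 4 of low-Cu/10. Slide 3 carried the last 2 of low-Cu/10 and the 6 control arrays. Slide 2 therefore held only the diets that carry a single change from control, which are the ones that enter the interaction with a minus sign. Adequate-Cu/30 rat 5 and low-Cu/10 rat 2, both on slide 2, stood apart from their diets in inflammatory genes, and results are also given without them. Both were picked by their values in these data and sit on diets with a minus sign. Leaving out rats high in inflammatory genes there moves negative interactions of such genes toward 0 by that choice. Rat 4 of low-Cu/30, high in Cxcl1 (3.26) and Icam1 (2.17), was kept. Without it alone, 5 bright inflammatory genes were called negative, against 4 with all rats.

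In these livers most of the called interactions were negative: 1136 bright genes had a negative interaction with an adjusted p under 0.05 (limma, Benjamini-Hochberg over all 18643 genes), 9.45% of those tested, and 317 (2.64%) had a positive one. Together that was 1453 bright genes, or 12.1%. Of these, 1448 crossed, with copper differences of opposite sign at 30% and 10% sucrose. Crossing on its own is common, since 9005 of the 12026 bright genes (74.9%) crossed whether called or not. A negative interaction took 1 form in nearly all: 1125 genes had higher means on both diets with a single change than on the control diet and on the diet with both changes, and 313 genes had the mirror image. In no bright gene did the rats on the single-change diets all lie on one side of the other rats (0 of 12026 genes, 0%).

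The arms of the crossing were not equally firm. Among the 1136 bright genes with a negative interaction, the copper difference alone had an unadjusted p under 0.05 at both sucrose levels in 289, at 10% sucrose only in 796, at 30% only in 49, and at neither in 2. Among the 317 with a positive interaction these counts were 81, 125, 108 and 3. The negative set leaned to dimmer genes, with a median level of -1.80, against 0.72 in the positive set and 0.07 over all bright genes. Current gene symbols could be matched for 50.1% of the negative set, 82.3% of the positive set and 63.3% of bright genes. Above the 75th percentile of the array the directions were closer in number, with 196 positive (3.2%) and 165 negative (2.69%) calls among 6123 genes. Below the median, in 6617 dim genes, 44 were positive and 2387 negative. Over all 18643 genes tested, 3884 were called (20.8%), 361 of them positive (1.94%) and 3523 negative (18.9%), and the unadjusted p was under 0.05 in 6237.

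**Figure D1:**
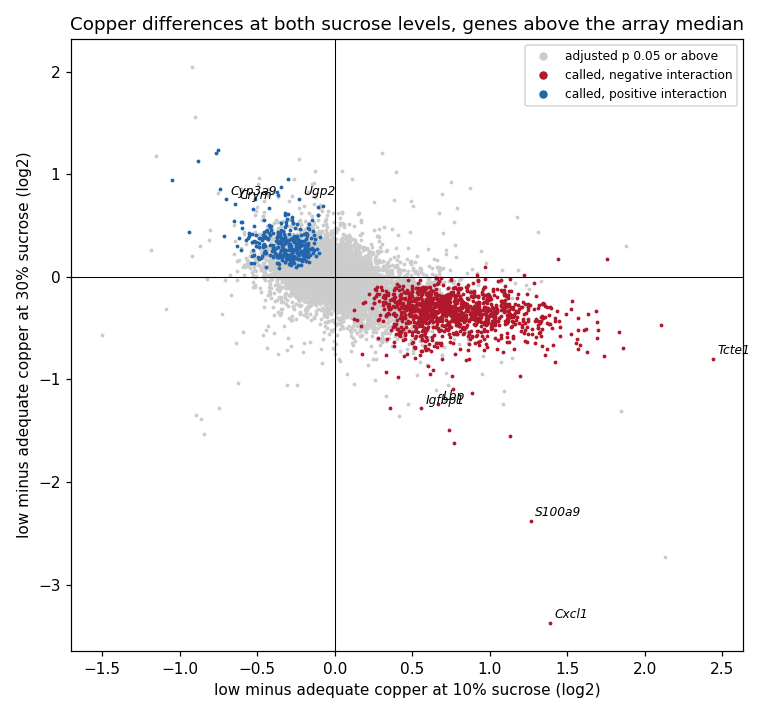
Each point is 1 of 12026 bright genes, with the low minus adequate copper difference at 10% sucrose on the x axis and at 30% sucrose on the y axis (log2, means of 6 rats). Red points are the 1136 genes with a called negative interaction, which lie at the lower right, and blue points are the 317 with a called positive interaction, in the upper left.

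The split between directions depended on how arrays were scaled. Quantile normalization gave 493 positive and 881 negative bright calls, and centring on the median of probes detected everywhere gave 685 and 1034, in place of 317 and 1136. The median interaction over all genes was -0.10 in the main scaling and 0.04 after quantile normalization. In the main scaling it was 0.02 in bright genes and -0.72 in dim genes, so dim genes lay as a whole in the direction of the negative calls. The positive count was also sensitive to single rats. It was 161 without rat 5 and 515 without rat 2 of adequate-Cu/30, 164 without rat 2 and 508 without rat 6 of low-Cu/10, 167 without rat 6 of low-Cu/30, and 210 and 211 without control rats 1 and 2. The negative count stayed between 914 and 1377 with each rat left out in turn. Without both rats that stood apart, 97 positive and 832 negative bright calls were made.

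Slide ended the calls. With slide as a fixed block, 10 of 18643 genes passed (limma, 0.0536%), all dim and all negative, and 0 of 12026 bright genes did, although 1136 bright genes (9.45%) had an unadjusted p under 0.05. In that fit the interaction rests on the rats that share a slide, which are 6 against 2 on slide 1 and 2 against 6 on slide 3, and its median SE was 0.34 in place of 0.26. Of the 1453 bright genes called without slide, 663 had an unadjusted p under 0.05 with it, 621 negative and 42 positive. The median interaction of the 1136 negative genes moved from -1.09 to -0.76, and that of the 317 positive genes from 0.61 to 0.40. With slide as a random block (consensus correlation 0.0873) 633 bright genes passed, 33 positive and 600 negative.

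Slide differences could also be read inside a diet, because both single-change diets were split over slide 2 and another slide. The sum of the differences of slide 2 from slide 1 in adequate-Cu/30 and from slide 3 in low-Cu/10 was called in 531 genes (limma, 2.85%), and 513 of these were higher on slide 2. Among bright genes 150 (1.25%) were called, 113 of them among the 1453 with an interaction. The median of this sum was 0.48 in the negative set and -0.29 in the positive set, and by construction 2/3 of it, with the sign turned, is what separates the interaction without and with slide. The sets were chosen by the interaction without slide, which contains this sum. Part of the overlap, of the opposite signs and of the move toward 0 with slide therefore follows from that choice. How much of the interaction belongs to diet and how much to slide cannot be told apart beyond these within-slide values.

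**Figure D2:**
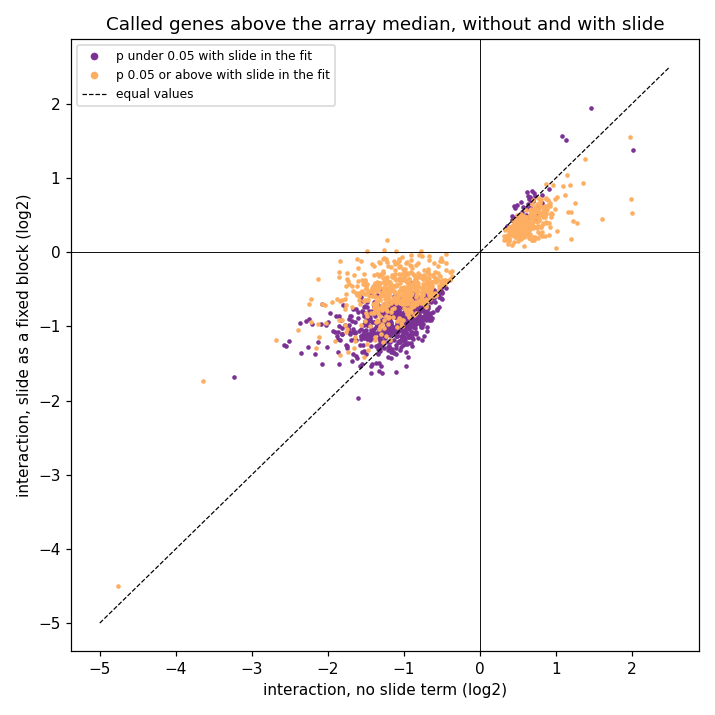
Interaction of the 1453 called bright genes without slide in the fit (x axis) and with slide as a fixed block (y axis), both log2. Points lie mostly nearer to 0 on the y axis than the dashed line of equal values, and the 663 purple points had an unadjusted p under 0.05 with slide in the fit.

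Gene lists for liver functions and cell types, 34 in all, differed in sign. In bright members the median interaction was positive for cytochrome P450 and nuclear receptor genes (0.42, 27 genes), bile acid genes (0.37, 18), urea cycle and amino acid genes (0.32, 44) and fatty acid oxidation genes (0.23, 37), against 0.02 over all bright genes. It was negative for neutrophil (-1.21, 7), odorant receptor (-1.12, 49), T, B and NK cell (-0.85, 7), inflammatory (-0.83, 15), immediate early (-0.76, 20), Kupffer cell (-0.69, 17), red blood cell (-0.68, 9), cholesterol synthesis (-0.50, 25) and acute phase genes (-0.45, 30). With slide as a block the medians were close to those values for neutrophil (-1.22), cholesterol synthesis (-0.49), acute phase (-0.40), cytochrome P450 and nuclear receptor (0.40) and fatty acid oxidation genes (0.21). They were nearer to 0 for inflammatory (-0.27) and urea cycle genes (0.16), and the Kupffer median had turned to 0.05. Without both rats that stood apart, the medians of neutrophil (-1.10), immediate early (-0.64) and urea cycle genes (0.24) moved by less than 1.5 times. Those of cholesterol synthesis (-0.27), acute phase (-0.17), inflammatory (-0.38), Kupffer cell (-0.20), T, B and NK cell (-0.43), cytochrome P450 and nuclear receptor (0.25), bile acid (0.21) and fatty acid oxidation genes (0.078) came nearer to 0 by more than that. Over all bright genes, 6340 of 12026 lay above 0 and 5686 below, which is the background for the counts by sign given for each list, as 9.45% negative and 2.64% positive are for the counts called. For counts with an unadjusted p under 0.05 without slide (limma), the background is 2842 of the 12026 bright genes.

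**Figure D3:**
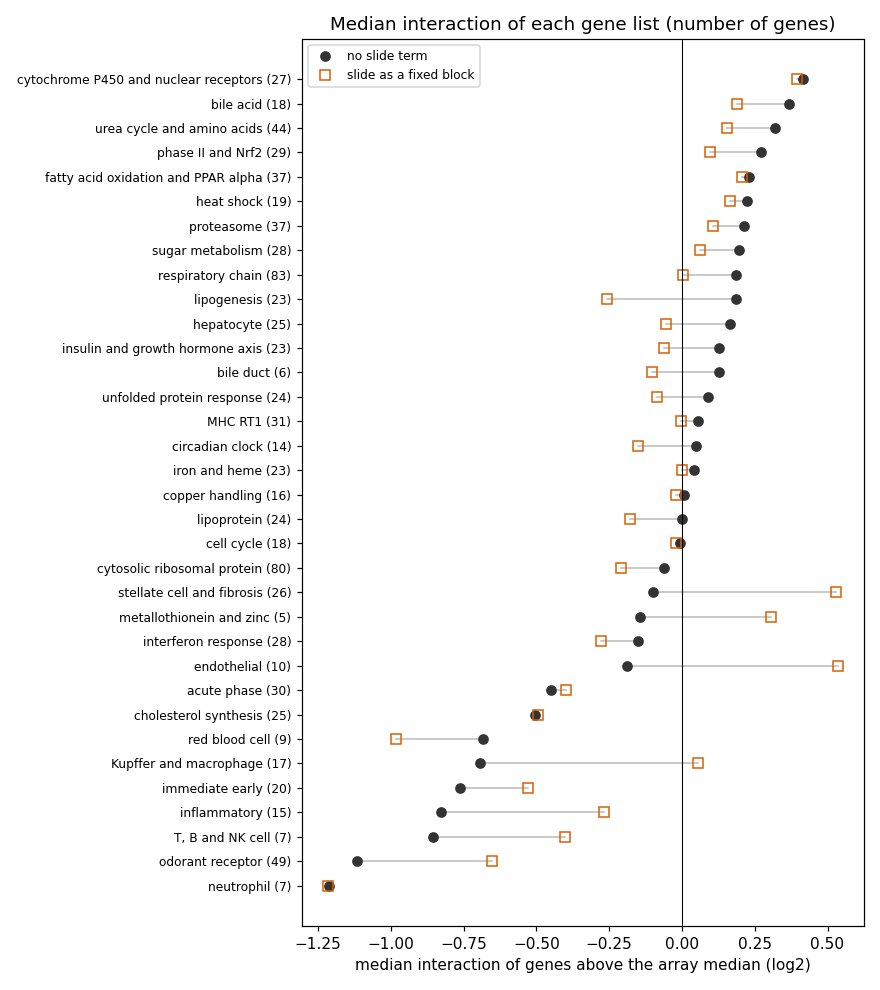
Median copper by sucrose interaction (log2, x axis) of the bright members of each gene list, with their number in brackets. Filled points are the fit without slide and open squares the fit with slide as a fixed block. The neutrophil list lies lowest in both (-1.21 and -1.22), and the list of cytochrome P450 and nuclear receptor genes highest without slide (0.42).

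Inflammatory genes were among the lists with negative medians. Of 15 bright inflammatory genes 4 had a called negative interaction and 0 a positive one, and 14 lay below 0. Cxcl1 (probe at chr14:18690468-18690527 of rn4, minus strand), a chemokine that attracts neutrophils, had the largest interaction of all bright genes called. Its level was lowest at -2.74, median -1.82 and highest 3.26 on low-Cu/30, and 0.97, 2.50 and 3.77 on adequate-Cu/30. On low-Cu/10 it was -2.17, -1.09 and 3.55, and on the control diet -3.07, -1.55 and 1.65. All 6 rats on adequate-Cu/30 were above 0.9, as were rat 4 on low-Cu/30, rats 2 and 5 on low-Cu/10 and rat 2 on the control diet, so every pair of diets overlapped. The copper difference was -3.38 (SE 1.05) at 30% sucrose and 1.39 (SE 1.05) at 10%, which gave an interaction of -4.76 (SE 1.49, limma adjusted p = 0.0255). It was -4.51 (SE 2.17, limma unadjusted p = 0.0504) with slide as a block. It was -3.76 without both rats that stood apart (limma adjusted p = 0.0839) and lay between -5.63 and -4.05 with each rat left out.

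**Figure D4:**
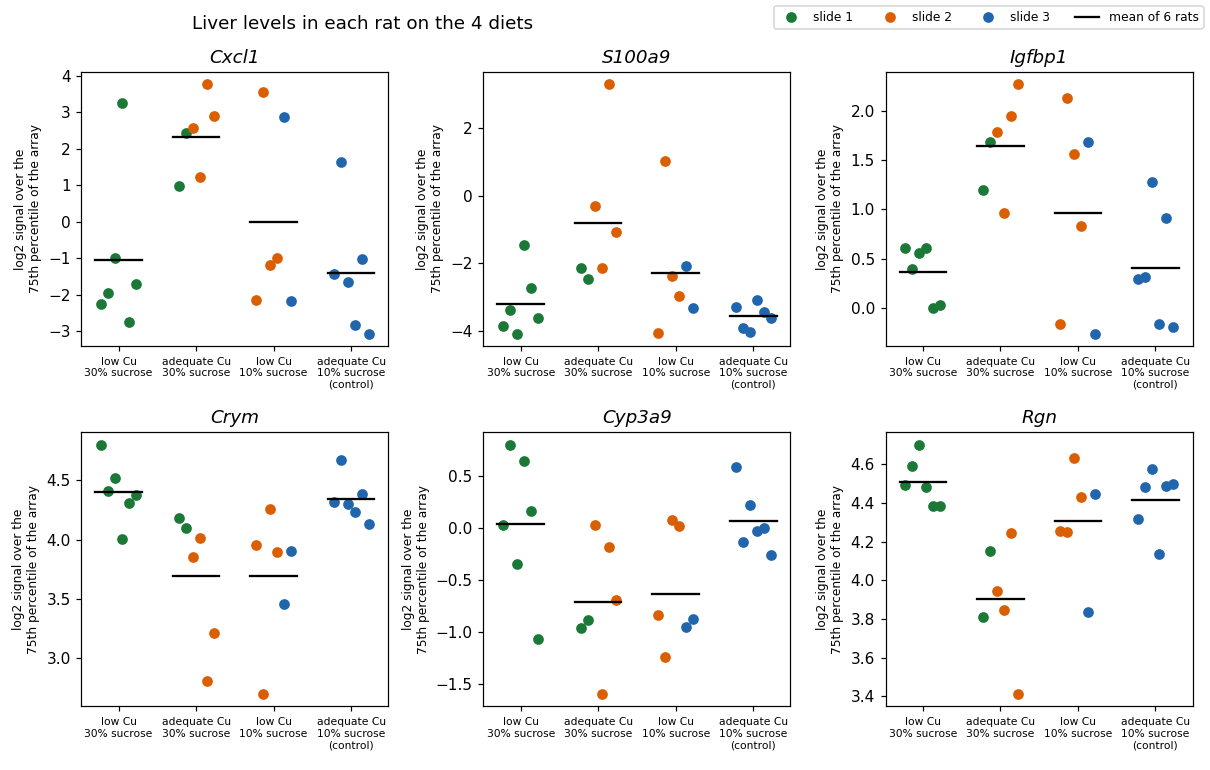
Level of 6 genes in each rat (y axis, log2 of signal divided by that array's 75th percentile) on the 4 diets, with colour for slide and a bar for the mean of 6 rats. Cxcl1, S100a9 and Igfbp1 have their highest means on adequate-Cu/30, Rgn has its lowest mean there, and Crym and Cyp3a9 have low means on both single-change diets (3.69 and 3.69 for Crym, -0.72 and -0.64 for Cyp3a9).

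Other members had smaller interactions of the same sign. Icam1, the adhesion molecule that leukocytes bind on endothelium, had medians of 1.19, 2.25, 1.35 and 1.0 on low-Cu/30, adequate-Cu/30, low-Cu/10 and control. Rats ranged from 0.82 to 2.17, 1.08 to 2.65, 1.07 to 2.97 and 0.79 to 1.68 in the same order, and all 4 ranges overlapped. Its interaction was -1.49 (SE 0.47, limma adjusted p = 0.0255), and -1.24 (SE 0.66, limma unadjusted p = 0.0734) with slide as a block. Ccl3, a chemokine of macrophages, had an interaction of -2.02 (limma adjusted p = 0.0266), and Nfkbia, the inhibitor that NF-kB induces, one of -0.93 (0.0466). The Nfkbia call was lost in 18 of 24 fits that each left out 1 rat. Cxcl10 (-1.93), Il1b (-1.26), Tlr2 (-1.22) and Vcam1 (-0.61) did not pass.

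NF-kB is a known activator of chemokine genes, and the promoters of 82 genes chosen for description were searched for its site, read as GGG, any 2 bases and TTTCC on either strand, in the 250 bases before the start in the RefSeq table (GRCr8). Of these 82 genes, 67 had a promoter in the table, and the site occurred in 4: Cxcl1, Nfkbia and Gbp5, all with a negative interaction, and Baat, with a positive one. They are shown because they are the only ones with a match, with the match in capitals.
Cxcl1 (chr14:17479322-17479571, minus strand): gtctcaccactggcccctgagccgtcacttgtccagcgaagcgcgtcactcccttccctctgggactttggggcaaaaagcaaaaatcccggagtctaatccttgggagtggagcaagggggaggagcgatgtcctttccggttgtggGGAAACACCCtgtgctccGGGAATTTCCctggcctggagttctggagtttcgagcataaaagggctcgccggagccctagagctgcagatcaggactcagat
Nfkbia (chr6:78597073-78597322, minus strand): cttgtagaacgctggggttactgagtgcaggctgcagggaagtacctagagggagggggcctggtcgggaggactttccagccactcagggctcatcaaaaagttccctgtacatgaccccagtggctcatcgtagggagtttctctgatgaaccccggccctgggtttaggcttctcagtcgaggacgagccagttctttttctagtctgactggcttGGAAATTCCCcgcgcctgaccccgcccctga
Gbp5 (chr2:233910749-233910998, plus strand): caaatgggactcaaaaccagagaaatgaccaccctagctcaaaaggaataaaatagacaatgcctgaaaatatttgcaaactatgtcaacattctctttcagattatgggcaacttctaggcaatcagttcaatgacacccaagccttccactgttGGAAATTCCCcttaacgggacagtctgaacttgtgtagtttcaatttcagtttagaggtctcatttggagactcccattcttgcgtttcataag
Baat (chr5:68656138-68656387, minus strand): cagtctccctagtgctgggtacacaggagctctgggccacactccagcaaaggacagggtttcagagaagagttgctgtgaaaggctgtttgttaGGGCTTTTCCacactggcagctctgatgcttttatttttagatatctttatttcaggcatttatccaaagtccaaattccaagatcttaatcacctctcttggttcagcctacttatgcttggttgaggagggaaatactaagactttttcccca
Cxcl1 carried 2 matches, which began 102 and 84 bases before the start. The site was found in 351 of the 27457 promoters of the table (1.28%), in 1.55% of the 7019 bright genes with a promoter, in 1.69% of the 533 with a called negative interaction and in 0.889% of the 225 with a positive one. A match is a description of these letters and not of binding, and the shares in the called sets rest on 9 and 2 genes.

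Neutrophil genes had the lowest median of any list. Of 12 measured, 6 had a called negative interaction and 0 a positive one, and of the 7 bright ones 3 were called. The share called negative was 18.9% over all genes and 9.45% over bright genes, with 2387 of 6617 among dim genes. S100a9 (chr2:182987647-182987706, minus strand), a subunit of calprotectin, which neutrophils carry in bulk, ranged from -4.07 over a median of -3.50 to -1.44 on low-Cu/30. It ranged from -2.47 over -1.60 to 3.28 on adequate-Cu/30, from -4.05 over -2.67 to 1.02 on low-Cu/10, and from -4.01 over -3.52 to -3.08 on the control diet. All 6 rats on adequate-Cu/30 were above all 6 control rats, low-Cu/10 overlapped every other diet, and the highest rats were those that stood apart. On low-Cu/30 and control its median was below the median of every array (-3.00 to -2.80 and -3.09 to -2.93). S100a9 thus counted as bright through the single-change diets. Its interaction was -3.64 (SE 1.13, limma adjusted p = 0.0249), -1.74 (SE 1.53) with slide as a block and -2.16 without both rats that stood apart (limma adjusted p = 0.0262), and it did not pass after quantile normalization (limma adjusted p = 0.0540). Its partner S100a8, just below the limit for bright genes, had an interaction of -3.83 (limma adjusted p = 0.0256).

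The other called neutrophil genes were less spread between rats. Camp, an antimicrobial peptide of neutrophil granules, had mean levels of -2.07 ± 0.36, -1.17 ± 0.42, -1.50 ± 0.68 and -2.13 ± 0.51 (SD, n = 6) on low-Cu/30, adequate-Cu/30, low-Cu/10 and control. Its interaction was -1.54 (limma adjusted p = 0.00815), and -1.25 with slide as a block (limma unadjusted p = 0.0367). Itgam, an integrin chain of neutrophils and macrophages, had an interaction of -1.21 (limma adjusted p = 0.00822) and -1.22 with slide (limma unadjusted p = 0.0111). Lcn2, a secreted iron-siderophore carrier, had an interaction of -4.87 (SE 2.23) and did not pass (limma adjusted p = 0.127). The summed signal of the 12 markers, 9 of them well above background on every array, ran from 1.24 to 4.77 (log2), 1.78 to 8.26, 1.28 to 6.52 and 0.94 to 1.68 on the 4 diets in the same order. In whole liver, fewer cells of a type and less RNA per cell cannot be told apart, and whether more neutrophils accounted for any of the inflammatory values was not tested.

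Markers of other immune cells also had negative medians. Of 20 T, B and NK cell genes measured 10 had a called negative interaction, most of them dim, against 18.9% of all genes and 2387 of 6617 dim genes. The 3 called among the 7 bright ones were Cd3d of the T cell receptor complex (-1.38, limma adjusted p = 0.00418), the kinase Zap70 (-1.27, 0.00690) and Il2rb (-0.74, 0.0433). With slide as a block Cd3d was at -0.95 (limma unadjusted p = 0.0290) and Zap70 at -0.40. The summed signal of those 20 markers, 12 of them well above background on every array, had medians of 3.23, 3.84, 3.78 and 3.61 on low-Cu/30, adequate-Cu/30, low-Cu/10 and control. Kupffer cells and macrophages had 16 of 17 bright genes below 0 and 1 called, Csf1r, the receptor for macrophage growth factor (-1.10, limma adjusted p = 0.00928), which was at -0.38 with slide. The summed signal of the 20 macrophage markers had medians of 5.86, 6.18, 5.91 and 5.96 in the same order. Red blood cell genes had 8 of 9 bright members below 0 and 0 called (limma, 1 with an unadjusted p under 0.05). Their 11 markers summed to medians of 8.28, 8.45, 8.15 and 6.98, and the part of any of these cells in the interactions was not tested.

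Of 30 acute phase genes, whose products the liver secretes in inflammation, 26 lay below 0 and 2 had a called negative interaction, which is no larger a share than the 9.45% of all bright genes. Lbp, which presents bacterial lipopolysaccharide to macrophages, had medians of 1.67, 2.64, 1.57 and 1.23 on low-Cu/30, adequate-Cu/30, low-Cu/10 and control, and ranged from 1.11 to 2.13, 1.96 to 4.69, 1.11 to 4.30 and 1.09 to 2.11. Rat 5 of adequate-Cu/30 and rat 2 of low-Cu/10 were the highest of all. The interaction was -1.91 (SE 0.63, limma adjusted p = 0.0335), -1.20 (SE 0.90) with slide and -1.08 without both of those rats (limma adjusted p = 0.0374). The call was lost in 6 of the 24 fits that each left out 1 rat. Socs3, which dampens cytokine signalling, had an interaction of -1.01 (limma adjusted p = 0.0121). Immediate early genes, which stress and cytokines induce within the hour, had 3 of 20 bright members called negative: Socs3 again, Klf6 (-1.53) and Ier3 (-0.92), of which Klf6 lost the call in 17 and Ier3 in 14 of 24 fits with 1 rat left out.

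Igfbp1 (chr14:87954736-87954795, plus strand), a liver protein that binds insulin-like growth factors and is repressed by insulin, crossed in its means but differed firmly only at 30% sucrose. Its medians were 0.47 on low-Cu/30, 1.74 on adequate-Cu/30, 1.20 on low-Cu/10 and 0.30 on the control diet. At 30% sucrose the diets did not overlap, with all low copper rats at 0.61 or below and all adequate copper rats at 0.96 or above. At 10% sucrose they did, from -0.26 to 2.13 and from -0.20 to 1.28. At the 2 sucrose levels the copper difference was -1.28 (SE 0.35) at 30% and 0.56 (SE 0.35) at 10% sucrose, and the interaction -1.84 (SE 0.50, limma adjusted p = 0.0115). It was -1.39 (SE 0.72, limma unadjusted p = 0.0679) with slide and passed with each rat left out in turn. Also in the insulin and growth hormone list, the growth hormone receptor Ghr (0.79, limma adjusted p = 0.0359) and the glucocorticoid receptor Nr3c1 (0.78, 0.0337) had positive interactions. Ghr lost the call in 7 and Nr3c1 in 10 of 24 fits with 1 rat left out, and without both rats that stood apart their adjusted p was 0.0929 and 0.0672. For Ghr the adjusted p (limma) was 0.0691 after quantile normalization and 0.0984 for the mean of its probes.

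Of the genes of cholesterol synthesis, 21 of 25 lay below 0, and 2 were called, a share below the 9.45% of all bright genes. Without both rats that stood apart 0 were called (limma) and the list median was -0.27. Sqle, squalene epoxidase, had medians of 0.16, 1.66, 0.54 and 0.58 on low-Cu/30, adequate-Cu/30, low-Cu/10 and control. It ranged from -0.25 to 1.15, 0.65 to 2.38, -0.42 to 2.70 and -0.34 to 1.03, and adequate-Cu/30 was the highest diet although overlapping each other one. The interaction was -1.64 (SE 0.56, limma adjusted p = 0.0402), -1.14 (SE 0.79) with slide, and its copper difference was -1.28 (SE 0.40) at 30% and 0.36 (SE 0.40) at 10% sucrose. Idi1, the isopentenyl diphosphate isomerase, had an interaction of -1.09 (SE 0.39, limma adjusted p = 0.0465), with medians of 0.63, 1.34, 0.67 and 0.47. Both calls were fragile, being lost in 14 and 17 of 24 fits with 1 rat left out and after quantile normalization (adjusted p of 0.0545 and 0.0595). Mvd, an earlier enzyme of the pathway, did not pass (-1.01, limma adjusted p = 0.0604). The count of called cholesterol genes ran from 0 without rat 2 of low-Cu/30 to 7 without rat 6 of low-Cu/10.

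Among structural cells the endothelial cadherin Cdh5 had a negative interaction with a small error. It lay between -2.16 and -1.12 (median -1.30) on low-Cu/30, -1.30 and -0.76 (-1.12) on adequate-Cu/30, -1.75 and -0.86 (-1.14) on low-Cu/10, and -2.16 and -1.80 (-1.92) on the control diet. All 12 rats on the single-change diets were above all 6 control rats, and so were 5 of the 6 rats on low-Cu/30, whose rat 6 was at -2.16. The interaction was -1.17 (SE 0.23, limma adjusted p = 0.00236), and -0.98 (SE 0.31, limma unadjusted p = 0.00425) with slide as a block. It was the only 1 of 10 bright endothelial genes called, near the background of 9.45%. Of 26 bright stellate cell and fibrosis genes 2 were called, below that background: smooth muscle actin Acta2 (-1.03, limma adjusted p = 0.00443) and the collagen chain Col1a1 (-0.92, 0.0181). The Col1a1 call rests on the probe used, since for the mean of its probes the interaction was -0.46 (limma adjusted p = 0.332). For both lists slide turned the median, from -0.19 to 0.54 in endothelial and from -0.10 to 0.53 in stellate cell genes, and without both rats that stood apart they were 0.11 and 0.16.

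Tcte1, a testis gene, had medians of -1.97, -1.34, -0.82 and -3.89 on low-Cu/30, adequate-Cu/30, low-Cu/10 and control. It ranged from -3.01 to -1.36, -1.92 to -0.65, -3.52 to 0.04 and -4.39 to -2.87, and the 4 rats of low-Cu/10 on slide 2 (-0.82 to 0.04) were above the 2 on slide 3. The interaction was -3.24 (SE 0.62, limma adjusted p = 0.00198), and -1.68 (SE 0.62, limma unadjusted p = 0.0136) with slide. Spink5, a skin protease inhibitor (-2.57), Cplx3, a synaptic protein of the retina (-2.51), the lipase Pla1a (-2.39), the leukocyte membrane gene Lrrc25 (-2.09) and the homeobox gene Emx1 (-2.01) were others, and with slide they were at -1.25, -1.20, -1.05, -0.97 and -1.28. On the control diet Tcte1, Spink5 and Cplx3 had medians of -3.89, -4.02 and -3.87, below the median of every array there (-3.09 to -2.93). They counted as bright through other diets. Odorant receptors, which liver is not known to use, were called negative in 246 of 324 measured and in 33 of 49 bright genes, with 0 positive, at a median of -1.12 in the bright ones and -0.65 with slide. The negative calls over all genes were 18.9% of those measured, 9.45% of bright genes and 2387 of 6617 dim genes.

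Among the lists with positive medians, enzymes of liver metabolism held most of the calls described here. The list of cytochrome P450 and nuclear receptor genes had 4 called positive of 27 bright, 0 negative and 24 above 0. All 4 called were cytochrome P450 enzymes, which oxidise steroids and foreign compounds. Cyp3a9 ranged from -1.07 over a median of 0.10 to 0.80 on low-Cu/30 and from -1.60 over -0.79 to 0.03 on adequate-Cu/30. It ranged from -1.25 over -0.86 to 0.08 on low-Cu/10 and from -0.27 over -0.02 to 0.59 on the control diet, and all diets overlapped. Low minus adequate copper was 0.76 (SE 0.30) at 30% and -0.70 (SE 0.30) at 10% sucrose. Its interaction of 1.46 (SE 0.43, limma adjusted p = 0.0175) was larger with slide as a block, at 1.94 (SE 0.61, limma unadjusted p = 0.00429), and was 1.44 without both rats that stood apart (limma adjusted p = 0.0312). Cyp3a18 had an interaction of 1.14 (SE 0.38, limma adjusted p = 0.0360) and 1.04 with slide, with medians of 4.45, 3.95, 4.03 and 4.41, and lost the call in 8 of 24 fits with 1 rat left out. Cyp2d3 (0.93) and Cyp2d4 (0.66) were the others, and these near-identical families may share signal between probes.

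Crym, a cytosolic protein that binds thyroid hormone, had among the largest positive interactions of strongly expressed genes. On low-Cu/30 it ranged from 4.01 to 4.80 (median 4.39), on adequate-Cu/30 from 2.81 to 4.18 (3.94), on low-Cu/10 from 2.70 to 4.26 (3.90), and on the control diet from 4.13 to 4.67 (4.31). The lowest 2 values were those of the rats that stood apart, and the diets overlapped. Its copper difference was 0.71 (SE 0.23) at 30% and -0.64 (SE 0.23) at 10% sucrose, and the interaction 1.35 (SE 0.33, limma adjusted p = 0.00657). It was 0.93 (SE 0.45, limma unadjusted p = 0.0513) with slide and 0.98 without both rats that stood apart (limma adjusted p = 0.0132). Mup4, a major urinary protein secreted under growth hormone and androgen control, was among the brightest, with medians of 6.83, 6.18, 6.63 and 6.96. Its interaction was 1.28 (SE 0.41, limma adjusted p = 0.0299), and 0.39 (SE 0.53) with slide. Low-Cu/10 rat 2, at 4.94, was far below its diet, and probes of this family of near-identical genes may share signal.

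Fatty acid oxidation and PPAR alpha genes had 33 of 37 bright members above 0 and 2 called positive, Acot12 and Bdh1. Acot12, which splits acetyl-CoA to acetate, lay between 1.58 and 1.89 (median 1.71) on low-Cu/30 and between 1.08 and 1.65 (1.49) on adequate-Cu/30. It lay between 0.91 and 2.17 (1.87) on low-Cu/10 and between 2.05 and 2.50 (2.16) on the control diet. The control rats were above every rat on 30% sucrose and overlapped low-Cu/10 through 1 rat. The copper difference was 0.30 (SE 0.15) at 30% and -0.51 (SE 0.15) at 10% sucrose, and the interaction 0.81 (SE 0.22, limma adjusted p = 0.0112). Slide left it at 0.76 (SE 0.32, limma unadjusted p = 0.0269). An exact two-sided permutation test of rats within slides 1 and 3, with 784 regroupings and a smallest possible p of 0.00128, gave p = 0.00255 for Acot12, unadjusted and the lowest of 18 genes tested that way. In that test S100a9 had p = 0.0446, S100a8 0.0702 and Cxcl1 0.0714 (exact, unadjusted). Bdh1, the ketone body enzyme, had an interaction of 0.74 (limma adjusted p = 0.0289) and 0.48 with slide. It lost the call in 7 of 24 fits with 1 rat left out, without both rats that stood apart (limma adjusted p = 0.0933) and after quantile normalization (0.0832).

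Rgn, regucalcin, a calcium-binding lactonase of hepatocytes that takes part in vitamin C synthesis, differed mostly at 30% sucrose. It ranged from 4.38 to 4.70 (median 4.49) on low copper and from 3.41 to 4.24 (3.89) on adequate copper at 30% sucrose, and from 3.83 to 4.63 (4.34) and 4.14 to 4.57 (4.48) on the same at 10%. The 30% sucrose diets did not overlap and the 10% diets did. At the 2 sucrose levels the copper difference was 0.61 (SE 0.13) at 30% and -0.11 (SE 0.13) at 10% sucrose. The interaction was 0.71 (SE 0.19, limma adjusted p = 0.0100), 0.80 (SE 0.27, limma unadjusted p = 0.00660) with slide and 0.77 without both rats that stood apart (limma adjusted p = 0.0144). Gulo, the last enzyme of rat vitamin C synthesis, had an interaction of 1.02 (SE 0.30, limma adjusted p = 0.0181) and medians of 3.08, 2.57, 3.03 and 3.34 on low-Cu/30, adequate-Cu/30, low-Cu/10 and control. With slide it was at 0.75 (SE 0.43).

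Enpep, the aminopeptidase that cleaves angiotensin II, also differed chiefly at 30% sucrose. Its medians were 1.29, 0.41, 0.72 and 0.97, with ranges of 0.63 to 1.81, -0.25 to 0.67, -0.27 to 1.10 and 0.50 to 1.20 in the same order, so that on 30% sucrose the diets overlapped by 1 rat each. The interaction was 1.25 (SE 0.31, limma adjusted p = 0.00684), and 0.66 (SE 0.42) with slide. Nox4, an NADPH oxidase, had a larger one (1.98, limma adjusted p = 0.0366) that was 0.71 with slide and 1.17 without both rats that stood apart (limma adjusted p = 0.0643). Nox4 was not well above background on every array, and its lowest rat on adequate-Cu/30 was at -5.79. The call was lost in 9 of 24 fits with 1 rat left out.

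In sugar metabolism 3 of 28 bright genes were called positive and 0 negative: Ugp2, which makes UDP-glucose for glycogen, Gys2, the liver glycogen synthase, and Pc, pyruvate carboxylase. Ugp2 ranged from 4.09 to 4.96 (median 4.47) on low-Cu/30, 3.34 to 4.14 (3.78) on adequate-Cu/30, 3.33 to 4.68 (4.41) on low-Cu/10 and 3.99 to 4.75 (4.51) on the control diet. Adequate copper with 30% sucrose was the low diet, overlapping the others narrowly except through rat 2 of low-Cu/10. The interaction was 0.99 (SE 0.30, limma adjusted p = 0.0213), and 0.59 (SE 0.41) with slide. Gys2 had 0.55 (limma adjusted p = 0.0248) and Pc 0.53 (0.0122). The glycogen branching enzyme Gbe1, outside the list count, had 1.19 (0.0290).

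The urea cycle and amino acid list had 9 positive calls among 44 bright genes, 0 negative, and 38 above 0, and without both rats that stood apart 3 were called. They were Slc25a13, the mitochondrial aspartate carrier (0.67, limma adjusted p = 0.00571), Nags, which makes the activator of the urea cycle (0.72, 0.0143), Gls2, liver glutaminase (0.48, 0.0169), Haao (0.85, 0.0185), Kmo (0.53, 0.0201), Hal (0.83, 0.0414), Otc (0.71, 0.0428), Csad (1.0, 0.0440) and Gpt2 (0.80, 0.0453). Otc makes citrulline, and Haao and Kmo break down tryptophan. With each rat left out in turn the count ran from 5 to 13, lowest without rat 3 of low-Cu/30 and highest without rat 2 of adequate-Cu/30. Gls2 was at 0.48 with slide (limma unadjusted p = 0.0296) and Nags at 0.60 (0.0534). Bile acid genes had 2 positive calls of 18, Baat, which joins bile acids to taurine and glycine (0.50, 0.0155), and Hsd3b7 (0.94, 0.0254).

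Of 83 bright nuclear genes of the respiratory chain, whose last complex contains copper, 69 lay above 0, 5 were called positive and 2 negative. The 5 were Sdhc (0.51), Atp5s (0.46), Cox5a (0.42), Ndufa4 (0.41) and Atp5j (0.41), and the 2 were Cox8b, the muscle form of a subunit of cytochrome c oxidase (-1.06), and Uqcrq (-0.77). The list median was 0.19, and 0.00 with slide. The positive count was 0 without rat 5 and 10 without rat 1 of adequate-Cu/30.

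Genes that handle copper itself did not pass. Of 16 bright copper handling genes 0 were called (limma, 0 with an unadjusted p under 0.05), with 8 above and 8 below 0. Sod1, the copper and zinc superoxide dismutase, had mean levels of 7.57 ± 0.15, 7.60 ± 0.19, 7.63 ± 0.14 and 7.62 ± 0.20 (SD, n = 6) on low-Cu/30, adequate-Cu/30, low-Cu/10 and control, and an interaction of -0.04 (SE 0.15). Ccs, the chaperone that loads it, had 0.31 (SE 0.17), Atp7b, the liver's copper exporter, 0.13 (SE 0.16), Atp7a, a related exporter below the bright limit, -0.40 (SE 0.37), and Slc31a1, the copper importer, 0.02 (SE 0.19). Cp, ceruloplasmin, had -0.73 (SE 0.38, limma adjusted p = 0.178), and Hamp, hepcidin, -0.53 (SE 0.39).

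The metallothioneins Mt1a (now Mt1) and Mt2A, which bind zinc and copper, did not cross. Mt1a ranged from 3.80 to 5.01 (median 4.58) on low-Cu/30, 5.02 to 8.25 (5.50) on adequate-Cu/30, 4.55 to 6.65 (5.45) on low-Cu/10 and 5.66 to 7.01 (6.48) on the control diet. At 30% sucrose the diets did not overlap, and at 10% they did. Low minus adequate copper was -1.34 (SE 0.43) at 30% and -0.89 (SE 0.43) at 10% sucrose, and the interaction -0.45 (SE 0.61, limma adjusted p = 0.651). Slide turned its sign, to 0.84 (SE 0.80). Mt2A had medians of 2.45, 3.53, 2.94 and 4.04, ranged from 2.27 to 2.63, 2.76 to 7.18, 2.12 to 4.64 and 3.37 to 4.66, and had an interaction of -0.69 (SE 0.77) that was 1.21 (SE 0.97) with slide.

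Lipogenic genes, on which dietary sucrose is known to act, had 0 of 23 bright members called (limma, 1 with an unadjusted p under 0.05), although 19 lay above 0. Fasn, fatty acid synthase, had an interaction of 0.37 (SE 0.72), Scd1 (now Scd) 0.68 (SE 0.49), Srebf1, their regulator, 0.58 (SE 0.29, limma adjusted p = 0.156), and Khk, the fructose kinase, 0.20 (SE 0.19). Pklr, liver pyruvate kinase, came nearest to the threshold at 0.85 (SE 0.33, limma adjusted p = 0.0728), with a copper difference of 0.71 (SE 0.23) at 30% and -0.13 (SE 0.23) at 10% sucrose. The list median was 0.19, and -0.26 with slide.

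Other bright genes had the smallest p-values once slide was in the fit. Tulp1 had an interaction of -1.34 with slide (limma adjusted p = 0.0751), against -0.97 without (limma adjusted p = 0.00380), Vps13a, a lipid transfer protein, -1.12 (0.122), against -1.51 without, and Rfx2, a transcription factor of cilia, -1.37 (0.158), against -1.50 without. On the positive side Pxdn, a matrix peroxidase (1.26, limma adjusted p = 0.164), Fcgr2b, an antibody receptor of liver endothelium (1.68, 0.204), Col6a1 (0.95, 0.215) and Frzb (1.49, 0.219) led, and none of these 4 was called without slide. The 10 genes that passed with slide were all dim. All 10 had negative values there. They included Ankrd29 (-1.86, limma adjusted p = 0.0397), well above background in all 24 rats, and Klf1, a factor of red cell precursors (-2.10, 0.0347), well above background in 2, 5, 4 and 2 of 6 rats on the 4 diets.

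Leaving out both rats that stood apart ended 26 of the 63 calls among the genes chosen for description. Both rats were picked by their values and fewer rats remain, so part of this loss follows from the choice and the smaller number. The adjusted p (limma) was then 0.0725 for Icam1, 0.110 for Sqle, 0.138 for Idi1, 0.0878 for Cyp3a18, 0.0610 for Ugp2 and 0.0576 for Gulo, with interactions of -1.22, -1.11, -0.72, 0.74, 0.75 and 0.76. Cyp2d3 (0.0625), Cyp2d4 (0.137), Gys2 (0.0759), Gbe1 (0.0892), Haao (0.0597), Hsd3b7 (0.0850), Nfkbia (0.133), Ier3 (0.112), Klf6 (0.0682), Gbp5 (0.0612), Pla1a (0.0560), Nox4 (0.0643), Cxcl1 (0.0839) and Cpox (0.0626) also lost the call. It stayed below 0.05 for Igfbp1 (0.0378, interaction -1.54), Enpep (0.0210, 1.0), Cdh5 (0.00967, -1.09), Tcte1 (0.00901, -3.04) and Mup4 (0.0490, 0.77). Quantile normalization ended 18 of the 63 calls, among them S100a8 (0.0641), Ccl3 (0.0874), Socs3 (0.0540), Baat (0.0607) and Gls2 (0.10).

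**Figure D5:**
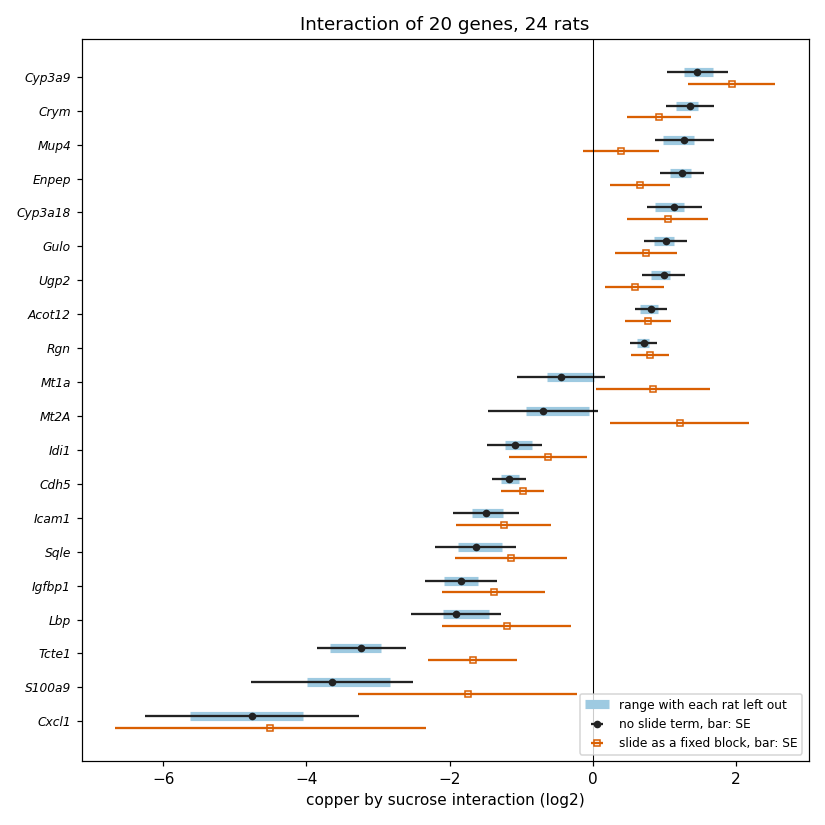
Copper by sucrose interaction (log2, x axis) of the 20 genes described by rat. Black points with SE bars are the fit without slide, blue bands the range with each rat left out, and open squares with SE bars the fit with slide as a block; Mt1a and Mt2A are the ones whose sign turned with slide (from -0.45 to 0.84 and from -0.69 to 1.21).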

How the data were processed

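Livers of 24 rats, 6 per diet, were measured with 1 array each. Per the file headers, the deposited intensity values came from Agilent Feature Extraction 10.7.3.1, which had subtracted background and detrended each array without scaling between arrays, and which also gave a mark for each spot well above background. A table deposited by the authors holds a score per probe whose scale is not stated in the sources used here. It was used only as an alternative, after reading it as a centred and scaled signal (multiplied by 662.195, plus 80.411, with a floor of 5), which is an assumption.

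Of 62976 spots, 4259 controls were left out, as were outlier-flagged spots (0.652% of the 58717 used). Spots of a probe were averaged, the signal was divided by the 75th percentile of the array, and log2 was taken. Probes had to be well above background on at least 6 arrays (21181 of 30367), and the brightest probe stood for a gene (18643 genes). Current symbols came from RefSeq through probe accessions, which matched 18004 of the 30367 probes and 13213 of those kept; other genes keep the array's name, which can be old. Probe positions are on rn4, per the file headers, whose gene annotation was not used here, so exons and UTRs are not given.

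The interaction was fitted on all 24 arrays with limma 3.58.1 (R 4.3.3) by lmFit and eBayes, with Benjamini-Hochberg adjustment over all genes and a threshold of 0.05. Slide as a fixed block was the check. For 18 fixed genes, rats were exchanged within slides 1 and 3 in an exact permutation test. The fitting was tested on simulated data. Figures used matplotlib 3.10.9 (Python 3.11.15).

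Named genes were the 12 bright genes of each sign with the largest called, crossing interaction, the 5 of each sign with the smallest p with slide in the fit, up to 4 bright members of each list with the smallest p, the 18 fixed genes, and genes that passed with and without slide. The text gives a choice of these made after their values were seen, and genes outside the rule chosen in the same way: Alb, Atp5s, Cox5a, Csad, Cxcl10, Gpt2, Hal, Il1b, Kmo, Lcn2, Ndufa4, Otc, Tlr2 and Vcam1. The members and lists were chosen with earlier results of these data known.

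Rat numbers recur across diets, but rats of the same number did not deviate together (r from -0.44 to 0.50 over pairs), so they were not treated as pairs. The alternatives were normexp background correction, quantile normalization, centring, the authors' table, filters on dim probes, slide as a fixed or random block, slide with quantile normalization, a replicate block, the mean of probes, an intensity trend, array weights, a minimum change of 1.5 times, and leaving out rats. Both rats left out together were picked by their values in these data. A bright limit at the 75th percentile was a further alternative. A block for the array's column within the slide, and the largest interactions above that limit as named genes, were chosen after seeing the data.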

Additional observations from a re-analysis of the deposited data

Results flagged for a closer look

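Single rats lay far from the other 5 on their diet in 7 of 80 comparisons of a gene on a diet, where chance gives about 1 in 20 for independent values. The genes share the same rats and were chosen after their values were seen, so 1 in 20 is no firm reference here. Cxcl1 was at 3.26 and Icam1 at 2.17 in low-Cu/30 rat 4. Lbp was at 4.69, Mt1a at 8.25 and Mt2A at 7.18 in adequate-Cu/30 rat 5. Mup4 was at 4.94 in low-Cu/10 rat 2, and Lbp was at 2.11 in rat 6 of the control diet.

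The copper difference was called unequal at the 2 sucrose levels, by the interaction term itself, in 1453 bright genes. Among the genes given rat by rat, the interaction was negative for Cxcl1 (-4.76), S100a9 (-3.64), Tcte1 (-3.24), Lbp (-1.91), Igfbp1 (-1.84), Sqle (-1.64), Icam1 (-1.49), Cdh5 (-1.17) and Idi1 (-1.09). It was positive for Cyp3a9 (1.46), Crym (1.35), Mup4 (1.28), Enpep (1.25), Cyp3a18 (1.14), Gulo (1.02), Ugp2 (0.99), Acot12 (0.81) and Rgn (0.71). With slide as a fixed block none of these 18 passed in limma after adjustment, and 5 had an unadjusted p under 0.05: Tcte1, Cdh5, Cyp3a9, Acot12 and Rgn.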

How the results depend on the processing

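Called counts without any change were 3884 for all genes, 1453 for bright genes and 1448 for crossing bright genes. Slide as a fixed block left 10, 0 and 0, the same with quantile normalization 2, 0 and 0, and slide as a random block 1807, 633 and 632. Requiring a change of at least 1.5 times left 114, 15 and 15, all negative, with 0 positive. All genes fell to 2393 in the authors' table and 2294 with the filter on all 24 arrays. Without both rats that stood apart, 929 bright and 925 crossing genes were called. A bright limit at the 75th percentile left 361 and 361, and 370 crossing genes had both copper differences at an unadjusted p under 0.05. With 1 rat left out in turn the counts ran from 3054 to 4828, 1081 to 1885 and 1072 to 1876, lowest without low-Cu/30 rat 6 and highest without low-Cu/10 rat 6. The replicate block gave 3924, 1389 and 1385, and the column on the slide as a block 1489 bright genes. The cause of these shifts was not tested, apart from the smaller numbers of genes or rats.

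None of the 63 called genes among the 82 chosen for description kept the call with slide as a fixed block, and none turned sign. Of the 63, 22 kept it with slide as a random block, 37 without both rats, 43 in the authors' table, 45 after quantile normalization and 51 with the replicate block. For the mean of probes 60 kept it, and Col1a1, Ghr and Cyp2d4 lost it. Signs turned only in genes that were not called. With slide fixed, Mt1a was at 0.84, Mt2A at 1.21, Atp7b at -0.11, Atp7a at 0.094, Slc31a1 at -0.24, Fasn at -0.37, Scd1 at -0.35, Srebf1 at -0.0016 and Khk at -0.049. Adding quantile normalization gave 1.06, 1.27, -0.052, 0.31, -0.11, -0.13 and -0.022 for the first 7 of these. Slc31a1 was at -0.094 with normexp, -0.052 with slide random and -0.026 without both rats, where Mt1a was at 0.25 and Mt2A at 0.24. Sod1 was at 7.74e-05 after quantile normalization, 0.037 after centring and 0.052 with array weights, and Atp7b at -0.073 for the mean of probes. With 1 rat left out Mt1a ran from -0.64 to 0.019, Sod1 from -0.090 to 0.027 and Slc31a1 from -0.059 to 0.081. Signal over background limits what can be said of dim genes.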

Other observations

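Several lists of general cell functions held few calls. Of 24 bright unfolded protein response genes only Chac1, a glutathione-degrading enzyme induced by that response, was called, with an interaction of -1.56 (limma adjusted p = 0.00265) and -1.13 with slide. Of 28 interferon response genes Gbp5, a guanylate-binding protein of inflammasome activation, was called at -2.16 (limma adjusted p = 0.0292), with mean levels of -2.6, -1.6, -2.0 and -3.2 on low-Cu/30, adequate-Cu/30, low-Cu/10 and control, and Herc6 was the other. Of 14 circadian clock genes Npas2 (-1.32, limma adjusted p = 0.00646) and Cry2 (-1.12, 0.0104) were called. Cytosolic ribosomal protein genes had 0 of 80 called (limma, 0 with an unadjusted p under 0.05) and a median of -0.06.

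Proteasome genes had 33 of 37 bright members above 0 with a median of 0.21, and 1 call in each direction. Heat shock genes had 17 of 19 above 0 with 1 call, the chaperone Hsp90ab1, and a median of 0.22. Phase II and Nrf2 genes, which conjugate drugs and hold off oxidants, had 23 of 29 above 0, a median of 0.27 and 0 called (limma, 8 with an unadjusted p under 0.05). Those 8 of 29 are near the share over all bright genes, 2842 of 12026. In iron and heme metabolism 1 of 23 genes was called, Cpox, a mitochondrial enzyme of heme synthesis (0.73, limma adjusted p = 0.0204).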
